A study of Bos taurus with 48 samples.

Results

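Cytosolic nucleic acid sensors and the endosomal receptors TLR3 and TLR7 were followed through bovine endometrium in early pregnancy. The group held 8 genes, DDX58, IFIH1, DHX58, EIF2AK2, ADAR, ZBP1, TLR3 and TLR7, of 15714 named genes on the array. A probe was taken when the array's own annotation gave a gene's symbol, which found DDX58, IFIH1, ADAR, TLR3 and TLR7. The other 3 genes were listed under older names and were found by accession or gene number in the RefSeq table: DHX58 as LGP2, EIF2AK2 as PRKR and ZBP1 as LOC508333. Each gene had 1 probe except ADAR, which had 2.

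Cells hold proteins that bind RNA or DNA of unusual form or location and answer with interferon. RIG-I (DDX58) and MDA5 (IFIH1) are helicases that bind RNA duplexes in the cytosol and signal through a mitochondrial adaptor, LGP2 (DHX58) modulates them, PKR (EIF2AK2) halts translation when it binds such RNA, ADAR edits RNA duplexes so that they are less readily sensed, and ZBP1 binds nucleic acids in the Z form and can start necroptosis. TLR3 and TLR7 sense RNA inside endosomes, and many of these genes are themselves induced by type I interferons, of which interferon tau, made by the ruminant conceptus, is one.

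The samples were caruncular and intercaruncular endometrium, the tissue that forms the maternal side of the placentomes and the glandular tissue between, of 22 lactating dairy cows of mixed New Zealand and North American Holstein-Friesian ancestry, collected at slaughter on day 17 of the reproductive cycle after synchronised estrus. In 12 pregnant cows a grade 1 blastocyst had been transferred on day 7, and the other 10 cows were cyclic and received none. The labels divided the pregnant cows by the conceptus recovered, into 7 with a large embryo (over 20 cm and 75 mg) and 5 with a small one (under 20 cm and 40 mg), and by a fertility label, into 6 fertile and 6 sub-fertile cows. These labels crossed, with 3 fertile and 4 sub-fertile cows among the large embryos and 3 fertile and 2 sub-fertile cows among the small ones. Samples carried Cy5 on the array and the reference, a pool of the 44 samples, carried Cy3 throughout, so a value is the log2 ratio of a sample to that pool and 0 is near the level of the pool. Values of different genes were not set against each other as levels. The tissue was measured in bulk, so that more cells of a type and more RNA per cell cannot be told apart.

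Spots well above background made up 68.8 to 84.0% of an array, with ranges that overlapped between all 4 groups. The 48 arrays lay on 12 slides of 4, since 4 caruncular samples were hybridised again, and the repeat arrays differed on the members' probes by a median of 0.13 on the log2 scale and by up to 0.47 in DDX58, 0.44 in ZBP1 and 0.43 in ADAR, all in 1 cyclic cow. Intercaruncular and caruncular samples were scanned on different days except in 1 pregnant and 1 cyclic cow, which had both tissues on 1 slide. With repeat arrays averaged into their samples, 1 slide in each tissue held cows of both states, 3 pregnant and 1 cyclic, and a further slide held caruncular arrays of 2 pregnant cows and 1 cyclic cow when repeat arrays are counted. Of the conceptus markers, IFNT2, TKDP1, TKDP2, PAG2, PAG11 and CDX2 were well above background in at most 2 of 44 samples and ELF5 in 11 of 44, and the 2 of 9 on the array that could be tested, PAG1 and HAND1, did not pass the test. All 5 endometrial markers were measured, and ESR1 fell in both tissues.

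All 8 genes were called higher in pregnant cows in caruncular endometrium and 7 of 8 in intercaruncular endometrium. There TLR3 was higher as well, at 1.49-fold, but was not called. A call needed both a fold of 1.5 or more and an adjusted p under 0.05 by limma. Over all 14643 probes tested, 5.75% rose past this threshold in caruncular and 3.97% in intercaruncular tissue. Changes ran from 1.91-fold for TLR3 to 17.0-fold for DDX58 in caruncular tissue, and from 1.49-fold for TLR3 to 8.79-fold for DDX58 in intercaruncular tissue. In caruncular tissue every pregnant cow lay above every cyclic cow in 7 genes, all but TLR3, which held for 1.58% of all probes. In intercaruncular tissue this held in 6 genes, all but TLR3 and TLR7, against 0.942% of all probes. Within each gene the pregnant caruncular group had the highest mean of the 4 groups. The cyclic caruncular group had the lowest mean in 6 genes, and the cyclic intercaruncular group in IFIH1 and TLR3.

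**Figure D1:**
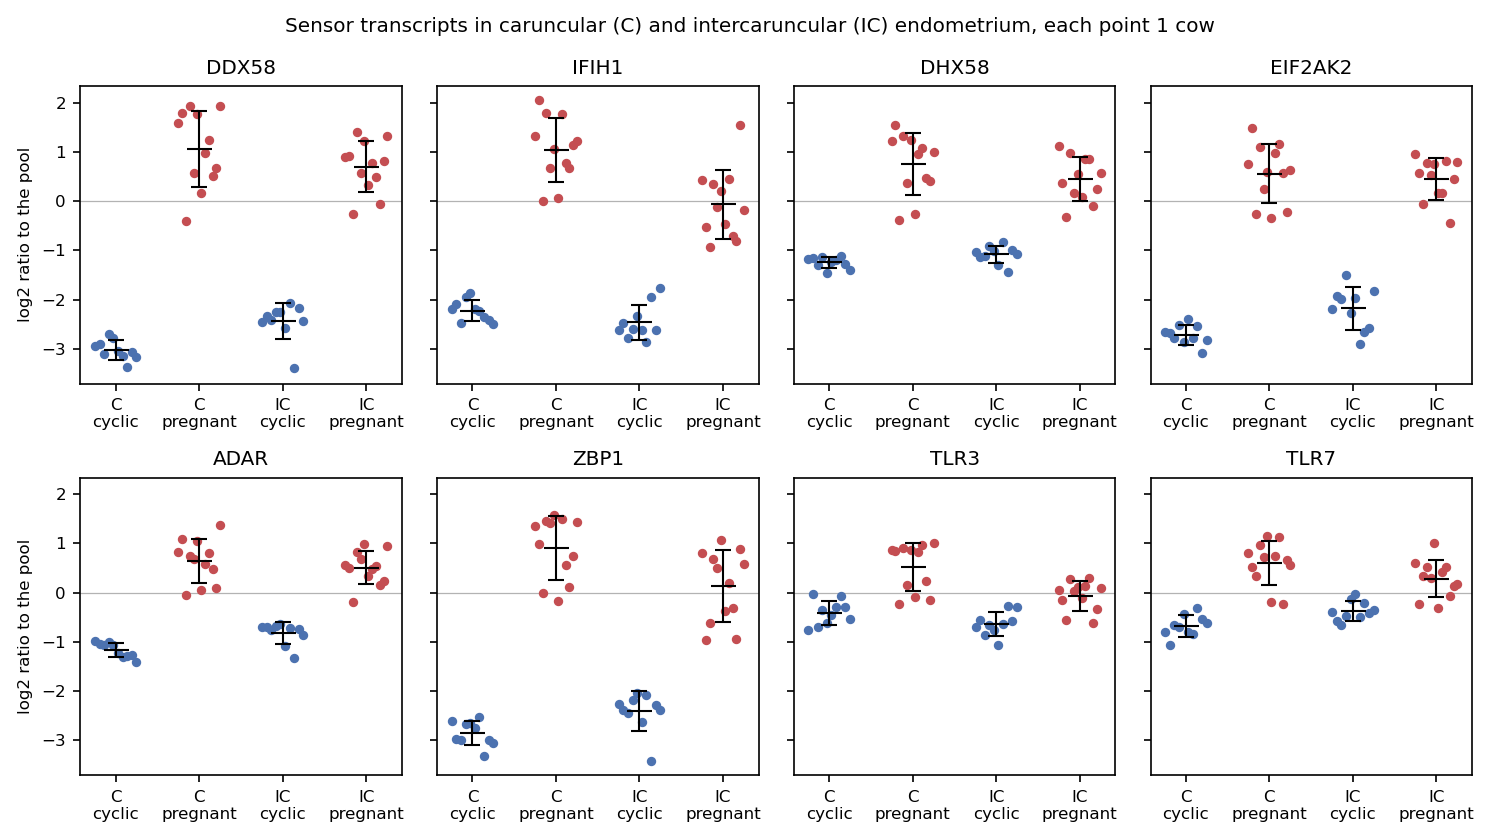
Log2 ratio of each sample to the pooled reference for the 8 genes, with 1 point for each cow and black marks for the group mean and 1 standard deviation, in cyclic (10 cows) and pregnant (12 cows) caruncular and intercaruncular endometrium. The groups of cyclic and pregnant cows are apart in both tissues for 6 genes, overlap for TLR7 in intercaruncular tissue and overlap for TLR3 in both.

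Of the cytosolic RNA helicases, DDX58, which encodes RIG-I, moved most. In caruncular tissue the log2 ratio of DDX58 ran from -3.36 through a median of -3.05 to -2.70 in cyclic cows and from -0.40 through 1.12 to 1.93 in pregnant cows. The difference was 4.08 (standard error 0.24, adjusted p = 2.86e-11 by limma), rank 13 of 14643 probes by change. In intercaruncular tissue the ratios of DDX58 were -3.39, -2.37 and -2.07 at the lowest, median and highest of the cyclic cows and -0.25, 0.79 and 1.40 in the pregnant cows. No pregnant cow came within 1 log2 unit of a cyclic cow in either tissue. The intercaruncular difference of DDX58 was 3.14 (standard error 0.19, adjusted p = 4.22e-11), rank 14.

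IFIH1, which encodes MDA5, the sensor of long RNA duplexes, was spread more widely among pregnant cows in intercaruncular tissue. Its caruncular log2 ratios were -2.49, -2.21 and -1.87 at the lowest, median and highest of the cyclic cows and 0.01, 1.10 and 2.06 in the pregnant cows, a difference of 3.27 (standard error 0.21, adjusted p = 6.82e-11 by limma). Its intercaruncular ratios were -2.86, -2.60 and -1.77 in cyclic and -0.93, -0.14 and 1.54 in pregnant cows, a difference of 2.40 (standard error 0.23, adjusted p = 1.07e-07). The groups did not overlap in either tissue. DHX58, which encodes LGP2, a helicase that lacks the signalling domain of the other two, had the narrowest cyclic group of the helicases. Its caruncular log2 ratios were -1.46, -1.21 and -1.11 in cyclic and -0.38, 0.98 and 1.55 in pregnant cows, and its intercaruncular ratios were -1.43, -1.05 and -0.83 and -0.32, 0.47 and 1.11. The differences of DHX58 were 1.99 (standard error 0.19, adjusted p = 9.63e-08) and 1.53 (standard error 0.15, adjusted p = 1.00e-07), a 3.97-fold and a 2.89-fold change, with no overlap.

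Of the genes that act on RNA duplexes directly, EIF2AK2 changed more than ADAR. The caruncular log2 ratios of EIF2AK2 (PKR) were -3.09, -2.72 and -2.40 at the lowest, median and highest of the cyclic cows and -0.34, 0.61 and 1.49 in pregnant cows. Its intercaruncular ratios were -2.91, -2.09 and -1.50 in cyclic and -0.45, 0.55 and 0.96 in pregnant cows. The differences were 3.27 (standard error 0.19, adjusted p = 2.76e-11 by limma) and 2.63 (standard error 0.17, adjusted p = 2.22e-10). The probe of EIF2AK2 was dim in cyclic cows, well above background in 6 of 10 caruncular and 9 of 10 intercaruncular samples of that state and in all 12 pregnant cows in each tissue.

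The brighter probe of ADAR, for transcript variant 1, had caruncular log2 ratios of -1.41, -1.15 and -0.97 in cyclic and -0.05, 0.71 and 1.38 in pregnant cows. In intercaruncular tissue the ratios of ADAR were -1.33, -0.73 and -0.63 in cyclic and -0.19, 0.52 and 0.99 in pregnant cows. The groups did not overlap, and the differences were 1.81 (standard error 0.14, adjusted p = 2.76e-09 by limma) and 1.33 (standard error 0.12, adjusted p = 6.05e-08). The other ADAR probe, for transcript variant 2, was too dim to be tested. It was not well above background in any cyclic cow, and was so in 12 of 12 pregnant cows in caruncular and 8 of 12 in intercaruncular tissue. Against the lowest signal measurable on each array, pregnant cows were at least 2.31-fold higher on this probe in caruncular and at least 1.36-fold higher in intercaruncular tissue, on dye-normalized signals that are open to dye bias.

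ZBP1, the sensor of Z-form nucleic acid, rose 13.6-fold in caruncular and 5.79-fold in intercaruncular tissue. Its caruncular log2 ratios were -3.32, -2.85 and -2.53 at the lowest, median and highest of the cyclic cows and -0.16, 1.17 and 1.57 in pregnant cows. Its intercaruncular ratios were -3.43, -2.32 and -2.03 in cyclic and -0.97, 0.35 and 1.06 in pregnant cows. The groups stood apart in each tissue, by 3.76 (standard error 0.21, adjusted p = 1.60e-11 by limma) and 2.53 (standard error 0.24, adjusted p = 1.07e-07).

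**Figure D2:**
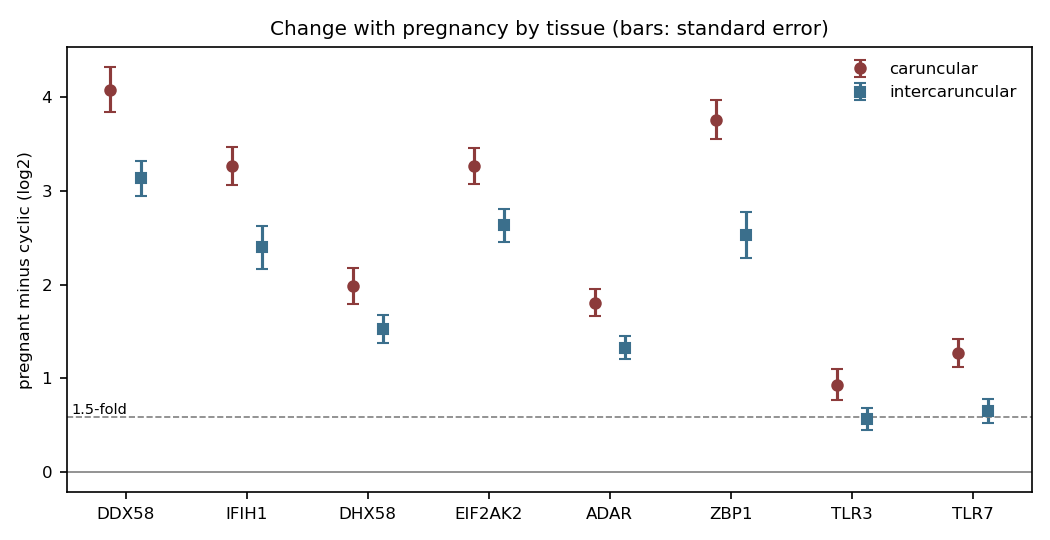
Log2 change from cyclic to pregnant cows of each gene in caruncular and intercaruncular endometrium, with bars of 1 standard error and a dashed line at 1.5-fold. DDX58 (4.08 and 3.14) and ZBP1 (3.76 and 2.53) lie at the upper end and TLR3 (0.93 and 0.57) at the lower end in caruncular tissue, and each gene's caruncular change is the larger of its pair.

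The endosomal receptors changed least. In caruncular tissue TLR3, which senses RNA duplexes, had log2 ratios of -0.76, -0.41 and -0.03 in cyclic and -0.22, 0.84 and 1.00 in pregnant cows. The groups overlapped, with 9 of 12 pregnant cows above every cyclic cow, and the difference was 0.93 (standard error 0.16, adjusted p = 0.00026 by limma). In intercaruncular tissue TLR3 ran from -1.07 through -0.64 to -0.27 in cyclic and from -0.62 through 0.04 to 0.29 in pregnant cows. That difference of 0.57 (standard error 0.12, adjusted p = 0.00163) was 1.49-fold and missed the fold threshold. It was past the threshold with normexp and loess (0.59), in the deposited matrix (0.59), with the slide as a fixed (1.08) or random block (0.61), and without the cyclic cow that had both tissues on 1 slide (0.61).

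TLR7, which senses single strands of RNA and is best known from plasmacytoid dendritic cells, B lymphocytes and macrophages, had caruncular log2 ratios of -1.06, -0.68 and -0.32 in cyclic and -0.23, 0.69 and 1.14 in pregnant cows. The groups did not overlap, and the difference was 1.27 (standard error 0.15, adjusted p = 1.67e-06 by limma). In intercaruncular tissue TLR7 was at -0.66, -0.41 and -0.02 in cyclic and -0.32, 0.32 and 1.01 in pregnant cows, and 9 of 12 pregnant cows were above every cyclic cow. That difference of 0.66 (standard error 0.13, adjusted p = 0.00124) was 1.58-fold. It ended below the threshold with normexp and loess (0.52), with the slide as a random block (0.54, adjusted p = 0.052) and on the slide with both states, where it was 0.06 (adjusted p = 0.969).

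Markers of immune cells moved in the same comparison. Of 6 macrophage and monocyte markers, CSF1R, AIF1 and CD86 rose in caruncular tissue and CSF1R and AIF1 in intercaruncular tissue. The summed signal of this list ran from 9645 to 23847 units in cyclic and from 15028 to 34948 in pregnant caruncular samples, and from 9179 to 17306 and 13048 to 34481 in intercaruncular samples. SPIB rose in both tissues and TCF4 did not pass the test, the 2 plasmacytoid dendritic cell markers that could be tested. Of 4 general leukocyte markers CD53 rose in both tissues (1.71 and 1.24 on the log2 scale). PTPRC (0.41 and 0.21), CORO1A (0.56 and 0.40) and LCP1 (-0.24 and -0.36) did not pass the threshold in either. None of 5 T lymphocyte and none of 2 tested B lymphocyte markers passed it. Of 2 tested natural killer cell markers NKG7 rose in caruncular tissue (0.75). Of 5 epithelial markers CDH1 rose in both tissues, and KRT18 and KRT19 fell in caruncular tissue. In both tissues 3 of 4 smooth muscle markers fell, as did COL3A1 of 5 stromal and PECAM1 of 4 endothelial markers, and COL1A1 fell in intercaruncular tissue. The part of these cells in the changes of TLR7 or of any other member was not tested.

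On the 1 caruncular slide that held 3 pregnant cows and 1 cyclic cow, the pregnant mean was above the cyclic cow by 3.92 in DDX58, 2.84 in IFIH1, 1.60 in DHX58, 2.58 in EIF2AK2, 1.94 in ADAR, 3.64 in ZBP1, 0.82 in TLR3 and 1.17 in TLR7 on the log2 scale. No pregnant cow on it overlapped the cyclic cow. With the slide as a fixed block, which rests on this slide, 5 of 8 genes passed, against 0.396% of all probes, and DHX58 (adjusted p = 0.266 by limma), TLR3 (0.537) and TLR7 (0.281) did not. On the further slide with repeat arrays, 2 pregnant arrays were above 1 cyclic array in each gene, by 4.55 in DDX58, 3.80 in IFIH1, 2.37 in DHX58, 2.98 in EIF2AK2, 2.12 in ADAR, 4.32 in ZBP1, 0.92 in TLR3 and 1.36 in TLR7. On the intercaruncular slide of the same make-up the differences were 3.31, 2.36, 1.57, 2.45, 1.75, 2.87 and 1.08 in the same order up to TLR3, against 0.06 in TLR7. Among samples scanned on 1 day, 11 pregnant and 9 cyclic cows in each tissue, differences ran from 1.02 (TLR3) to 4.00 (DDX58) in caruncular and from 0.64 (TLR3) to 3.02 (DDX58) in intercaruncular tissue. On the other scan day they ran from 0.70 (TLR3) to 4.45 (DDX58) over 2 pregnant and 4 cyclic caruncular arrays, and from -0.06 (TLR3) to 4.31 (ZBP1) between 1 pregnant and 1 cyclic intercaruncular array.

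The change with pregnancy was larger in caruncular tissue in each of the 8 genes, but the difference between the tissues did not pass in any gene in the fit of all 44 samples. It was 1.23 in ZBP1 (standard error 0.33, adjusted p = 0.242 by limma), 0.95 in DDX58 (adjusted p = 0.404), 0.87 in IFIH1 (0.469), 0.63 in EIF2AK2 (0.556), 0.62 in TLR7 (0.40), 0.48 in ADAR (0.525), 0.46 in DHX58 (0.746) and 0.36 in TLR3 (0.765). Of all probes, 0.0137% passed that test, and 1077 had an unadjusted p under 0.05, among them 6 of the 8 genes, all but DHX58 and TLR3. When the cow entered as a fixed replicate block, since both tissues came from the same animal, 4 genes passed, against 0.997% of all probes: ZBP1 (adjusted p = 0.0018), DDX58 (0.0034), TLR7 (0.0051) and ADAR (0.0228). With a random replicate block for the cow IFIH1 passed as well (adjusted p = 0.0361), against 2.85% of all probes. Without both cows that had their tissues on 1 slide, ZBP1 alone passed in the fit with no block (1.37, adjusted p = 0.0358), against 0.697% of all probes. Those cows, 1 of each state, alone had both tissues scanned on 1 day. Caruncular less intercaruncular was -0.14 in the pregnant and 0.03 in the cyclic cow in DDX58, and -0.14 and 0.11 in ZBP1. In that order it was -0.68 and 0.11 in EIF2AK2, -0.16 and 0.04 in ADAR and 0.16 and 0.32 in DHX58. It was -0.40 and -0.41 in IFIH1, 0.19 and 0.19 in TLR3 and 0.52 and -0.12 in TLR7. The pregnant cow was thus clearly the higher in TLR7 alone. With the scan date as a fixed block and none for the cow, the differences stayed near those of the fit with no block. They were 1.22 in ZBP1 (adjusted p = 0.147 by limma) and 0.95 in DDX58 (0.264), and no gene passed, as in that fit. The main scan day of each tissue held 11 pregnant and 9 cyclic cows. This block could thus hardly move the differences, and it cannot tell the tissue from the scan day.

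In cyclic cows 5 of 8 genes were lower in caruncular than in intercaruncular tissue, against 17.2% of all probes lower and 33.6% changed either way. These were DDX58 (-0.59 on the log2 scale, adjusted p = 0.00178 by limma), EIF2AK2 (-0.53, 0.00798), ADAR (-0.34, 0.00535), ZBP1 (-0.44, 0.0227) and TLR7 (-0.30, 0.0185). DHX58 was at -0.16 (adjusted p = 0.0997), IFIH1 at 0.24 (0.157) and TLR3 at 0.22 (0.124). When the cow entered as a fixed replicate block, TLR3 passed as well (adjusted p = 0.0323), against 54.1% of all probes changed either way, and with a random block DHX58 (0.0283) and TLR3 (0.0193) passed, against 54.5%. The repeat arrays of 1 cyclic cow, which differed by 0.47 in DDX58, 0.44 in ZBP1 and 0.43 in ADAR, were as far apart as some of these differences. Within cows, the caruncular value was the higher in 1 of 10 for DDX58, ADAR, ZBP1 and TLR7, in 2 of 10 for EIF2AK2 and DHX58, and in 8 of 10 for IFIH1 and TLR3.

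In pregnant cows 3 of 8 genes were higher in caruncular tissue, IFIH1 by 1.11 (adjusted p = 0.00133 by limma), ZBP1 by 0.78 (0.0181) and TLR3 by 0.59 (0.00392), against 23% of all probes higher and 48.5% changed either way. The other genes differed by 0.10 (EIF2AK2) to 0.36 (DDX58). When the cow entered as a fixed replicate block, DDX58, DHX58 and TLR7 passed too (adjusted p = 0.0079, 0.023 and 0.0023), against 61.5% of all probes. With a random replicate block only TLR7 was added (adjusted p = 0.0156), against 61.6% of all probes, and DDX58 (0.0677) and DHX58 (0.0785) did not pass. Within cows, TLR3 was higher in caruncular tissue in 12 of 12, IFIH1 and ZBP1 in 11 of 12, DHX58 and TLR7 in 10 of 12, DDX58 and ADAR in 8 of 12 and EIF2AK2 in 5 of 12.

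For all but 2 cows the tissue cannot be told apart from the scan day in these comparisons. In the cyclic cow with both tissues on 1 slide the caruncular value less the intercaruncular value was 0.03 in DDX58, 0.11 in EIF2AK2, 0.04 in ADAR, 0.11 in ZBP1 and -0.12 in TLR7. The other 9 cyclic cows lay between -1.08 and -0.46 in DDX58, between -0.58 and -0.15 in ADAR and between -0.72 and -0.12 in ZBP1, and thus all below this cow in these genes. In the pregnant cow with both tissues on 1 slide the difference was -0.40 in IFIH1, -0.14 in ZBP1 and 0.19 in TLR3, against 0.53 to 2.60, 0.20 to 1.95 and 0.02 to 1.00 in the other 11 pregnant cows. With the scan date as a fixed block no gene passed in either state.

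**Figure D3:**
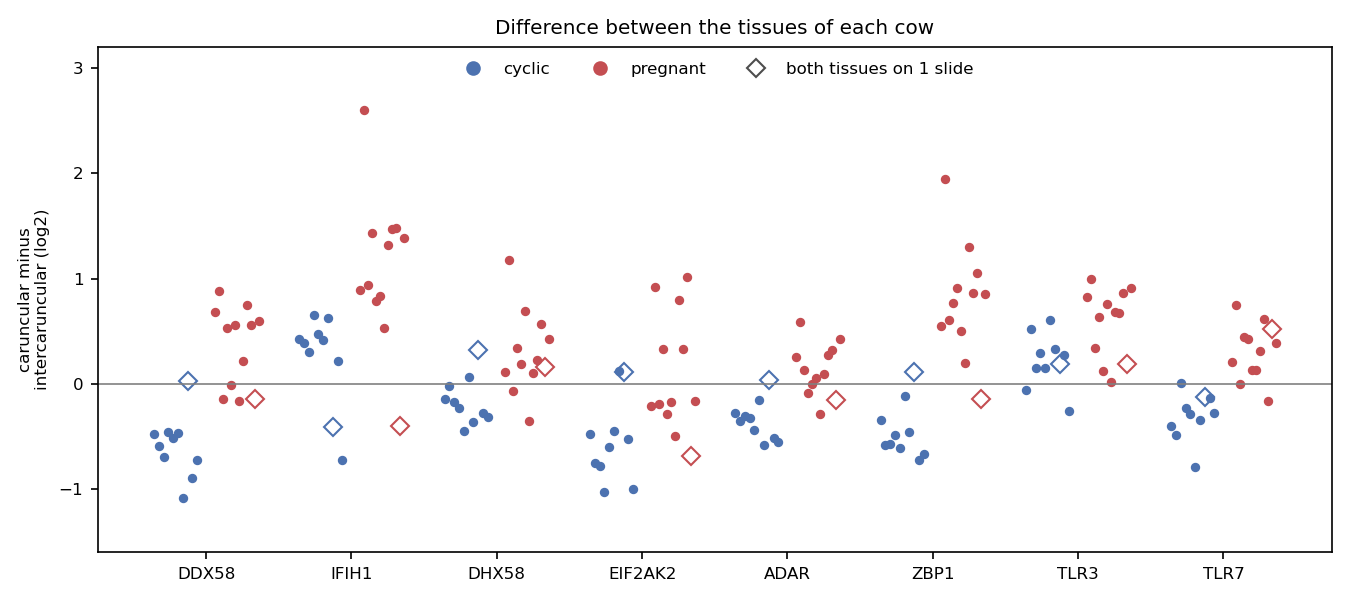
Caruncular less intercaruncular log2 ratio of each cow for the 8 genes, in 10 cyclic and 12 pregnant cows, with the cyclic and the pregnant cow that had both tissues on 1 slide marked apart. The marked cows lie outside the range of the other cows of their state in several genes, such as IFIH1 and ZBP1 in the pregnant cow and DDX58, ADAR and ZBP1 in the cyclic cow.

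A pregnant cow that was high in one tissue tended to be high in the other, as held for many probes. Over all 14597 probes with a value in each of these cows the median r between the tissues was 0.47, 91.2% had an r above 0 and 17.6% reached the r of 0.71 that is the lowest of the 6 genes given first. Over the 12 pregnant cows, Pearson's r between the tissues was 0.89 in DDX58, 0.82 in ADAR, 0.81 in TLR7, 0.79 in DHX58, 0.74 in TLR3 and 0.71 in ZBP1, with permutation p-values adjusted over the 8 genes of 0.00048, 0.00368, 0.00368, 0.00508, 0.0101 and 0.0171. Spearman's rho was 0.93, 0.80, 0.87, 0.71, 0.74 and 0.62 in the same order (adjusted permutation p = 0.00024, 0.00803, 0.00152, 0.0208, 0.0154 and 0.0429). IFIH1 (r = 0.45, adjusted permutation p = 0.165, rho = 0.56, 0.0631) did not pass, and EIF2AK2 passed only by rank (r = 0.42, 0.173, rho = 0.62, 0.0429). Without the 2 cows farthest from the median, r was 0.57 to 0.82 in the 6 genes, 0.22 in IFIH1 and 0.39 in EIF2AK2. Over the 11 cows whose tissues lay on different slides and scan days, r was 0.71 to 0.92 in the 6 genes.

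**Figure D4:**
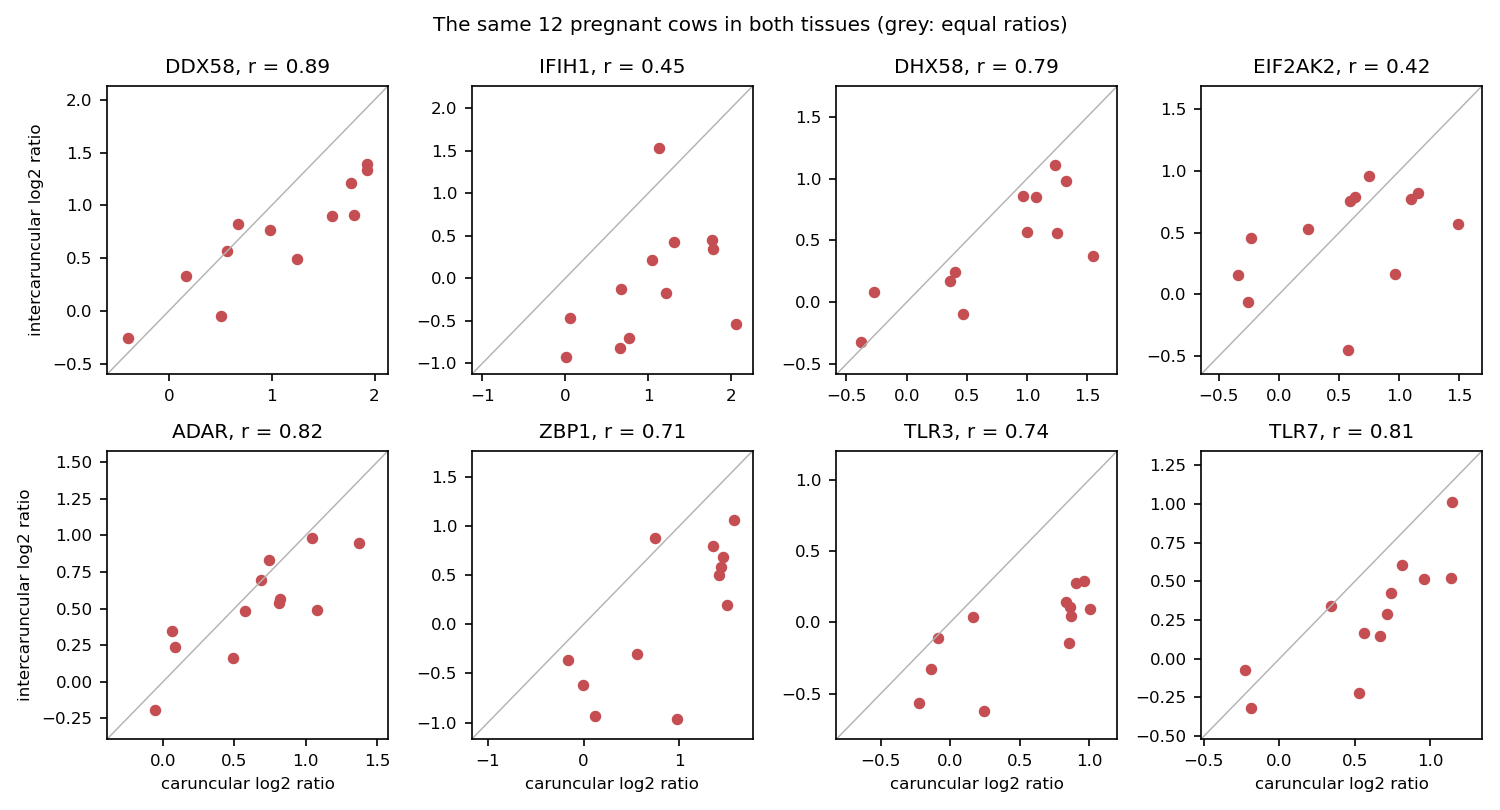
Log2 ratio in intercaruncular against caruncular endometrium for each of the 12 pregnant cows, with 1 panel for each gene and a grey line where both ratios are equal. The points lie close to a rising line in DDX58 (r = 0.89) and are loose in IFIH1 (r = 0.45) and EIF2AK2 (r = 0.42).

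Among pregnant cows each of the 8 genes had a higher mean with a large than with a small embryo in both tissues, while 53.7% of all probes were higher in caruncular and 48.2% in intercaruncular tissue. In intercaruncular tissue 2 genes passed the test, ZBP1 and EIF2AK2, against 1.56% of all probes higher and 3.69% changed either way. The log2 ratio of ZBP1 was -0.97, -0.93, -0.61, -0.36 and 0.20 in the 5 cows with a small embryo, and the lowest, median and highest of the 7 cows with a large one were -0.30, 0.69 and 1.06. Thus 6 of 7 large-embryo cows were above every small-embryo cow, and the difference was 1.14 (standard error 0.25, adjusted p = 0.0329 by limma). EIF2AK2 was at -0.45, -0.06, 0.16, 0.17 and 0.57 with a small embryo and at 0.45, 0.77 and 0.96 with a large one. Here 5 of 7 large-embryo cows were above every small-embryo cow, and the difference was 0.65 (standard error 0.15, adjusted p = 0.0425).

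Both calls lay close to the threshold. With 1 cow left out at a time the ZBP1 difference stayed between 1.03 and 1.32, with adjusted p from 0.0164 to 0.0962 by limma, and that of EIF2AK2 between 0.52 and 0.77, with adjusted p from 0.0163 to 0.0991. No gene passed when any 1 of 4 small-embryo cows, those with ZBP1 below 0, or any 1 of 4 large-embryo cows, those with ZBP1 at 0.51, 0.69, 0.80 and 1.06, was left out. Only ZBP1 passed without the large-embryo cow at -0.30 or the one at 0.58, and ZBP1, EIF2AK2 and ADAR passed without the one at 0.88, which had both tissues on 1 slide. With the fertility label as a covariate the differences were 1.10 (adjusted p = 0.0352) and 0.67 (0.0362). Even the small-embryo cow with the lowest ZBP1, at -0.97, was above every cyclic cow, the highest of which was at -2.03.

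The other genes differed by embryo size in intercaruncular tissue by 0.33 (TLR3) to 0.68 (IFIH1) on the log2 scale and did not pass (adjusted p of 0.13 to 0.268 by limma). In caruncular tissue no gene and 0% of all probes passed, and 1012 probes had an unadjusted p under 0.05. Leaving out 1 cow turned the sign there in IFIH1 (lowest -0.0049) and EIF2AK2 (lowest -0.087). In that tissue TLR7, DDX58 and ZBP1 differed most, by 0.62 (standard error 0.18, adjusted p = 0.611), 0.77 (0.36, 0.727) and 0.73 (0.29, 0.692), and EIF2AK2 by 0.12 (0.33, 0.968). In TLR7 the 5 small-embryo cows were at -0.23, -0.19, 0.34, 0.52 and 0.74, and 4 of 7 large-embryo cows were above them all. Whether the difference by embryo size was unlike between the tissues was not tested.

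**Figure D5:**
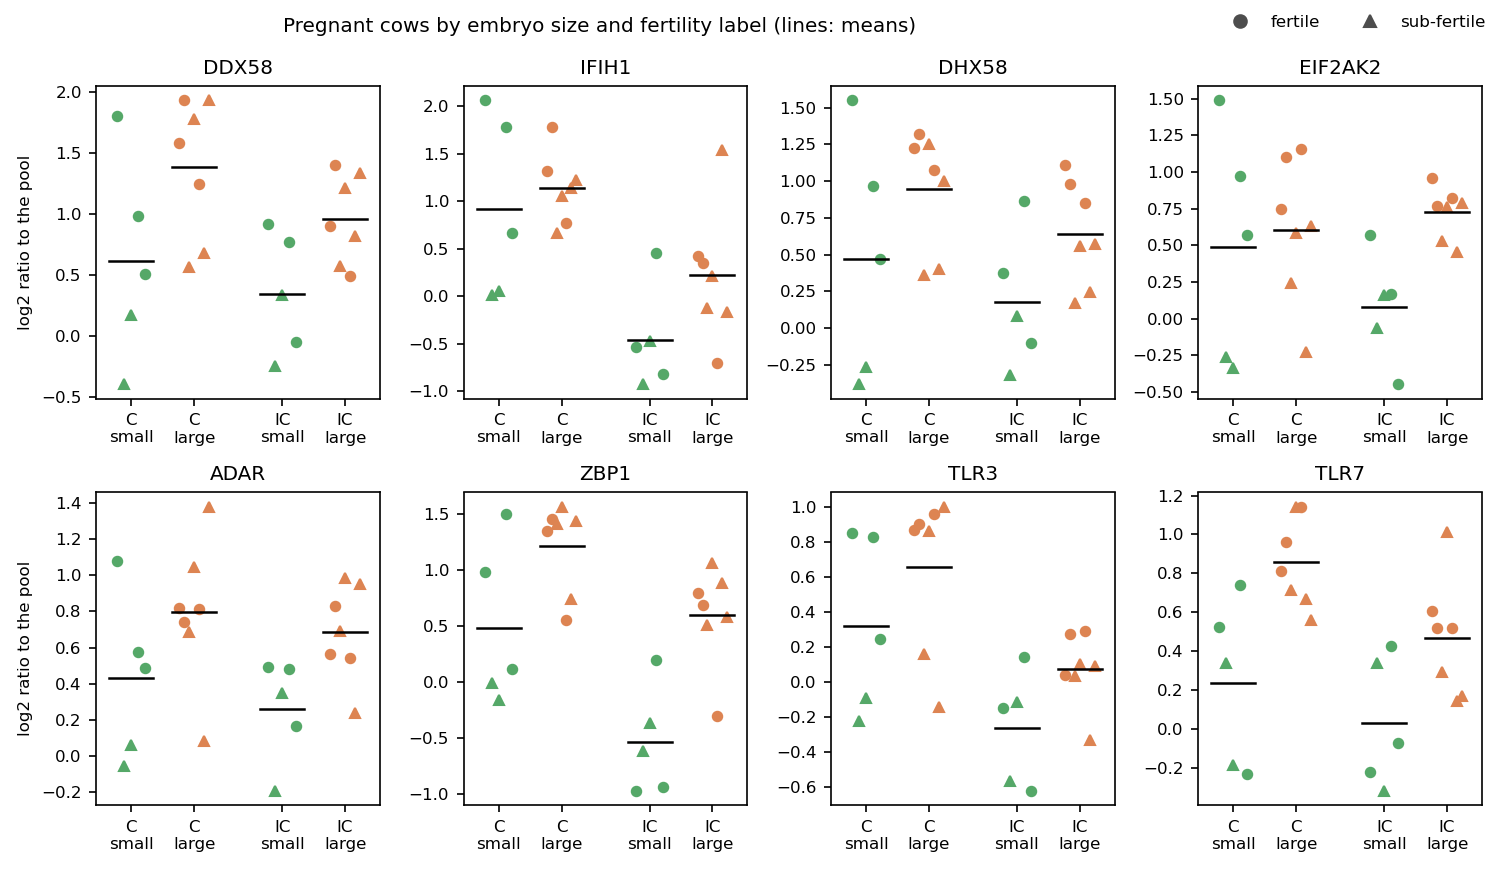
Log2 ratio of each pregnant cow for the 8 genes in both tissues, by embryo size (7 large, 5 small), where C is caruncular and IC intercaruncular, with a line at the mean and fertile cows as circles and sub-fertile cows as triangles. In intercaruncular tissue ZBP1 and EIF2AK2 are higher with a large embryo, with means 1.14 and 0.65 apart and 1 or 2 large-embryo cows within the range of the small-embryo cows.

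By fertility label, none of the 8 genes and 0% of all probes passed in caruncular tissue, where 2020 probes had an unadjusted p under 0.05. Each gene had the higher mean in fertile cows there, as did 45.0% of all probes. EIF2AK2 differed most. Its log2 ratios were 0.57, 1.03 and 1.49 at the lowest, median and highest of the 6 fertile cows and -0.34, 0.01 and 0.63 in the 6 sub-fertile cows, with 5 of 6 fertile cows above every sub-fertile cow. The difference was 0.90 (standard error 0.21, adjusted p = 0.235 by limma). DHX58 (0.71, adjusted p = 0.318), IFIH1 (0.70, 0.329), DDX58 (0.56, 0.532) and TLR3 (0.52, 0.341) followed, and ADAR, ZBP1 and TLR7 differed by 0.12 to 0.22. In intercaruncular tissue no gene passed either, against 0.0478% of all probes, and 1998 probes had an unadjusted p under 0.05. The means of 6 genes were higher in fertile cows, with DHX58 at 0.46 (standard error 0.21, adjusted p = 0.367) and ZBP1 at -0.43 (0.38, 0.631) at the ends of the range. The Cy5 signal of the DHX58 probe went the other way there. Its lowest, median and highest were 1107, 1478 and 5726 units in fertile and 3905, 6272 and 8028 in sub-fertile cows. In cyclic cows that signal ran from 2070 to 3087, and the reason for the low signals was not tested. With the slide as a fixed block DHX58 was at 0.017 and DDX58, EIF2AK2, ADAR, TLR3 and TLR7 turned to -0.05, -0.28, -0.07, -0.15 and -0.82 in intercaruncular tissue, and ZBP1 and TLR7 turned to -0.23 and -0.59 in caruncular tissue, with no gene past the test.

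Other genes of the same pathways were described from lists of 95 genes, of which 67 had a probe that could be tested. Of these, 12 rose and none fell in caruncular tissue, and 10 rose and none fell in intercaruncular tissue, each gene counted by its brightest tested probe alone. Of all 14643 probes, 842 rose and 618 fell past the same threshold in caruncular tissue, and 581 rose and 474 fell in intercaruncular tissue. The median change of the 67 genes was 0.07 and 0.03 on the log2 scale, beside -0.04 and -0.01 over all probes. Of 10 adaptors, kinases and transcription factors of RIG-I-like receptors, IRF3 rose in caruncular tissue (1.09, adjusted p = 2.04e-06 by limma) and was at 0.41 in intercaruncular tissue (adjusted p = 0.111). The kinase TBK1, which phosphorylates IRF3, was at 0.13 and 0.12 and did not pass. Of 14 regulators and co-sensors, TRIM25, the ubiquitin ligase of RIG-I, rose by 1.67 and 1.68, on a probe that the stricter signal filter removed. DDX3X, of the same list, was at 0.15 and 0.19 on its brightest probe and was not called. Its other tested probes were at 1.00 and 0.81 in caruncular and 0.68 and 0.66 in intercaruncular tissue. Whether those probes passed is not given here.

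Among 9 genes of cytosolic DNA sensing, IFI16, a DNA sensor, rose by 2.77 and 2.02 (adjusted p = 7.46e-10 and 7.42e-09 by limma), TREX1, the exonuclease that clears cytosolic DNA, by 1.77 and 1.46, and PYCARD, the inflammasome adaptor, by 1.24 and 1.03. Of 9 partners of the endosomal receptors, UNC93B1, which carries them to the endosome, rose by 1.01 and 0.82. MYD88 was at 0.30 and 0.07 and was not called, and its other tested probe was at 0.63 and 0.53. None of 4 cell surface Toll-like receptors passed the threshold, with changes of 0.26 and 0.38 in TLR2, 0.28 and 0.23 in TLR4, -0.09 and -0.07 in TLR5 and 0.03 and 0.17 in TLR6.

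Of 12 genes of the PKR arm, which are subunits of its substrate eIF2, the related kinases, inhibitors and targets, 1 rose, the stress transcription factor ATF3, by 1.22 and 1.19 on the log2 scale. In the 2-5A system 2 of 8 genes could be tested. OAS2, a synthetase that is activated by RNA duplexes, rose by 3.82 and 2.90, and PDE12, which degrades 2-5A, rose by 0.96 in caruncular tissue (adjusted p = 0.00412 by limma) and was at 0.51 in intercaruncular tissue (adjusted p = 0.0264), under the fold threshold. The relatives of ADAR that could be tested did not pass it, with ADARB1 at -0.43 and -0.56 and ADAT2 at -0.31 and -0.28. Of 5 partners of ZBP1 in necroptosis, 3 rose in both tissues: MLKL, the effector that permeabilises the membrane, by 1.81 and 1.36, CASP8, a protease that restrains necroptosis, by 1.24 and 0.87, and RIPK3, the kinase that phosphorylates MLKL, by 0.87 and 0.68. RIPK1 was at 0.31 and 0.33, and FADD at 0.63 and 0.71 (adjusted p = 0.0605 and 0.0508 by limma). The other tested probe of each gene was at 0.55 and 0.53 in RIPK1 and at -0.04 and 0.03 in FADD.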

How the data were processed

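RNA of 44 samples was measured on 48 Agilent 2-colour arrays. The authors scanned the arrays and deposited spot intensities that Feature Extraction had background-subtracted and dye-normalized by LOWESS, with log10 ratios of Cy5 to Cy3, per the file headers. The authors' deposited matrix of log2 ratios (17876 probes) correlated with the scanner ratios at r = 0.982 or more over probes and was an alternative. Outlier spots were left out, each log10 ratio was converted to log2, the spots of a probe and then repeat arrays were averaged, and the array median was subtracted. A probe entered the test if 22 or more samples were well above background with a signal of 80 units or more (14643 of 21475 probes). Each comparison used limma 3.58.1 (lmFit, eBayes) in R 4.3.3 with Benjamini-Hochberg adjustment over all probes. Pregnant and cyclic cows were called different at 1.5-fold and an adjusted p under 0.05, the others at the adjusted p alone. Scripts were tested on simulated data. The number of cows, not depth, limits the precision.

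Correlations between tissues were tested with 100000 permutations, two-sided. Both tissues of a cow come from the same animal, which pairs the samples, and the deviations of the tissues from their group means correlated in each of the 22 cows (r = 0.11 to 0.87 over probes). The members and gene lists were chosen with earlier results of these data known. Text names every member, and of each pathway list the 3 largest rises and falls past the threshold in each tissue, or all genes of a list with at most 4 tested. TBK1, DDX3X, MYD88, RIPK1 and FADD and the marker genes were named outside that rule after their values were seen. The main probe of a gene was its brightest tested probe. Alternatives were normexp background (offset 50) with loess, uncentred arrays, the signal filter dropped or set to 33 samples, the first or repeat array alone, the deposited matrix, the methods' t-test (Welch's version), slide as a block, all samples in 1 fit, the other label as a covariate, the cow as a replicate block and each cow left out in turn for embryo size. Leaving out the cows with both tissues on 1 slide, and the scan date as a block between tissues, were chosen after seeing the data. Figures were drawn with matplotlib 3.10.9 in Python 3.11.15, and tables were handled with numpy 2.4.6 and pandas 2.3.3.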

Additional observations from a re-analysis of the deposited data

Results flagged for a closer look

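In 5 of 80 groups of 5 to 10 cows, 1 cow lay far from the rest of its group by Dixon's test, where chance marks about 1 group in 20. The cyclic cow with both tissues on 1 slide was the lowest in intercaruncular tissue in DDX58, at -3.39 on the log2 scale beside -2.57 in the next cow, and in ZBP1, at -3.43 beside -2.63. A fertile cow had the lowest intercaruncular ZBP1 of the large-embryo cows, at -0.30 beside 0.51. A cow with a small embryo had the lowest caruncular TLR3 of the fertile cows, at 0.25 beside 0.83. The pregnant cow with both tissues on 1 slide had the lowest intercaruncular TLR3 of the large-embryo cows, at -0.33 beside 0.04.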

How the results depend on the processing

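Of the counts of members called, 119 alternatives stayed within 1.5 times the value given and 20 did not, and the cause was not tested unless stated. With the slide as a fixed block, the pregnancy comparison leaves 1 cyclic cow per tissue to compare. Its differences are those given above for the slide of each tissue with 3 pregnant cows and 1 cyclic cow. For embryo size in intercaruncular tissue, a comparison among pregnant cows, 0 genes passed with the slide as a fixed block. The count for embryo size was also 0 without a signal filter, where more probes were tested (ZBP1 adjusted p = 0.0509 and EIF2AK2 0.0569 by limma). It was 0 by Welch's t-test (adjusted p = 0.0713 and 0.134), and ran from 0 to 3 with 1 cow left out. The differences of ZBP1 and EIF2AK2 stayed at 1.14 and 0.65 without the filter and by Welch's t-test, and were 1.01 and 0.65 with the slide block. The share of all probes that passed in these fits is not given here.

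When the cow entered as a fixed replicate block, 4 genes passed in the difference between tissues of the pregnancy effect and 6 in the tissue comparison of pregnant cows. With a random replicate block 5 passed in the former and 4 in the latter, and 1 in the former without the cows with both tissues on 1 slide. With the scan date as a block, either tissue comparison rests on 1 cow per state and cannot decide whether the tissues differ. The sign of called genes then turned in pregnant cows in IFIH1 (-0.40) and ZBP1 (-0.14). In cyclic cows it turned in DDX58 (0.027), EIF2AK2 (0.11), ADAR (0.038) and ZBP1 (0.11). Among genes not called, DDX58 (-0.14), EIF2AK2 (-0.68) and ADAR (-0.16) turned in pregnant and IFIH1 (-0.41) and DHX58 (0.32) in cyclic cows.

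The groups of 5 to 12 cows, the dim probes of EIF2AK2 and of the ADAR variant 2, and a single dye orientation limit these values.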

Other observations

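The genes whose pattern was most like that of a member over the 44 samples, after the mean of each of the 4 tissue and state groups was subtracted, were given by Pearson's r among 11185 named genes, as a description over arrays that share slides and a reference pool. DDX58 was nearest to PARP12 (r = 0.92), ISGF3G (now IRF9, 0.91), C17orf27 (0.90), MX1 (0.87) and SASS6 (0.87). IFIH1 was nearest to PAPD4 (0.91), RSAD2 (0.89), GBP7 (0.89), CDADC1 (0.88) and DTX3L (0.87). DHX58 was nearest to bubp43 (now USP18, 0.95), GBP4 (0.92), MOV10 (0.92), the probe listed as HERC5 (0.91) and UBE1L (now UBA7, 0.90). ZBP1 was nearest to IFI44 (0.81), IFITM2 (0.81), OAS2 (0.80), MX2 (0.79) and PARP12 (0.79), and ADAR to EPSTI1 (0.85), SASS6 (0.85), DNAPTP6 (0.84), PARP12 (0.84) and C17orf27 (0.83). EIF2AK2 had weaker neighbours, PDE12 (0.79), DUSP11 (0.79), FLJ11171 (0.78), bubp43 (0.76) and FUNDC1 (0.76).

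The endosomal receptors had other neighbours. TLR3 was nearest to RAB8B (0.84), BPNT1 (0.84), LAYN (0.83), MITD1 (0.83) and SP140 (0.82). TLR7 was nearest to CD53 (0.79), a leukocyte surface protein, CD86 (0.79), a co-stimulatory protein of antigen-presenting cells, FCGR3A (0.74), an Fc receptor of macrophages and natural killer cells, CCNB2 (0.73) and NEFH (0.73). Over the 28 pairs of members the same r ran from 0.32 between TLR7 and ADAR to 0.87 between ADAR and DDX58.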
